A study of Mus musculus with 9 samples.

Results

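The unnamed transcribed loci are the 3921 rows of the authors' full comparison table whose gene name is a dash, out of 27198 rows (14.4%). Each row has a genomic span but no gene symbol, and each was paired with the nearest named row on the same chromosome. The gap between the spans placed 126 loci in a span shared with a named row, 471 at up to 1 kb, 1409 at 1 to 10 kb, 1318 at 10 to 100 kb and 596 farther away. The remaining locus, on the mitochondrial chromosome, had no named row to pair with. The study sequenced polyadenylated RNA from the posterior second heart field (pSHF), progenitor mesoderm dorsal to the heart that contributes cells to the atria and atrial septum. Mouse embryos of mixed background were dissected at stage E10.5, and the libraries are 4 of genotype Shh WT and 5 of genotype Shh KO. Shh encodes the secreted ligand Sonic hedgehog, and the series asks how Hedgehog signalling shapes gene networks in cardiac progenitors. The labels name neither the Shh allele nor whether each library is a separate embryo, so p-values reflect the spread between these libraries, which may be technical. The deposited values are the authors' pooled comparison, with no value per library, and the depth per library is unknown.

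Transcript assembly from RNA-seq reports any stretch of reads, whether or not an annotated gene lies there. Such stretches can be transcripts that start upstream of a gene, often from the same promoter in the opposite direction, or ends of a gene that its annotation leaves out. They can also be reads on processed pseudogenes, which are copies of messenger RNA that were pasted back into the genome and so resemble the parent gene's exons. In Hedgehog signalling, ligand binding to the receptor Ptch1 releases Smoothened and activates the Gli transcription factors, and Ptch1 is itself a direct target of the pathway.

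The promoters beside 3 loci are shown because the locus reaches into each window, and because Fendrr and Ptch1 lie beside called loci. Each is the RefSeq window from 250 bases before to 50 bases after the gene's start (GRCm38.p6), 5′ to 3′ on the gene's strand, and capitals mark the bases inside the unnamed locus. Fendrr is at chr8:121083061-121083360, Ptch1 at chr13:63565686-63565985 and Wnt2b at chr3:104961660-104961959, all on the minus strand.
Fendrr: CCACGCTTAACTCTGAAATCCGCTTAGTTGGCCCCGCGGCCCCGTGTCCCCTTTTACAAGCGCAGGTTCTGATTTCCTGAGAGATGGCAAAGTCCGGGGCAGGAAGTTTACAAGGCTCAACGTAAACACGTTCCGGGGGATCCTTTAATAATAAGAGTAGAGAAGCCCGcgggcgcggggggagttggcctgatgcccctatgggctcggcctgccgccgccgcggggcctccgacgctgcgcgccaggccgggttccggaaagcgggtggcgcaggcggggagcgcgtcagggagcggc
Ptch1: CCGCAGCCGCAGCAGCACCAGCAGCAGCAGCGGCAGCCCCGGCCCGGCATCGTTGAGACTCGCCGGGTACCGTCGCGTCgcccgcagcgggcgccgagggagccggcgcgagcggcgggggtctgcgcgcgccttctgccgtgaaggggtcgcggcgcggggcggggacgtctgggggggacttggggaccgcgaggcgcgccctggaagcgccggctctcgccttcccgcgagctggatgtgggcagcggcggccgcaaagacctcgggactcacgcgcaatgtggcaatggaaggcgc
Wnt2b: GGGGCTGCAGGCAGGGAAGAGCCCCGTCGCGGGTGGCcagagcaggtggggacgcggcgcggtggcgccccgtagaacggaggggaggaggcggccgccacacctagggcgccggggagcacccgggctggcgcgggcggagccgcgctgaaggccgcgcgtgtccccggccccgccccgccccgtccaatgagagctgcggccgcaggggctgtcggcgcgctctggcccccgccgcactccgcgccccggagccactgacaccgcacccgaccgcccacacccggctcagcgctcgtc
The locus covers 169 bases of the Fendrr window, 79 of the Ptch1 window and 37 of the Wnt2b window. These windows hold 31, 47 and 43 CpG dinucleotides. Over the 350 RefSeq windows of genes with a locus within 1 kb on the 5′ side, the median was 25 CpG, against 7 over all 32817 windows in the table. TATAAA, searched on both strands, was present in 5.43% of the 350 windows and in 13.6% of all windows. CCAAT was present in 34% and 37.4%. The Gli core GACCACCCA was present in 3 of the 350 (0.857%) and in 83 of all windows (0.253%), and in none of the 3 printed. A RefSeq window of the neighbour was found for 275 of the 361 loci on that side, and 115 of the loci overlapped it. All windows of a neighbour were counted, whether or not the locus reached them. The set of all windows was not limited to genes tested here. Whether the 350 windows differ from those of other expressed genes was not tested.

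Loci on pseudogenes are shown with the matching stretch of the parent messenger RNA, because this resemblance bears on how their values can be read. The Hsp90ab1 copy is part of the pseudogene Gm6368 at chrX:141980485-141980595, and the Larp1 copy is part of Gm16425 at chr8:19538029-19538148, both on the plus strand (GENCODE M21, GRCm38). Capitals mark the bases that differ.
Gm6368 locus: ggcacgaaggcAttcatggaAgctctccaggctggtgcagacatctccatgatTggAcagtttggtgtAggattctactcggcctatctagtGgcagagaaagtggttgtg
Hsp90ab1: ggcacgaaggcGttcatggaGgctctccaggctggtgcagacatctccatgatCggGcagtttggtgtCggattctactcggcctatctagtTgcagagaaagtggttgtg
Gm16425 locus: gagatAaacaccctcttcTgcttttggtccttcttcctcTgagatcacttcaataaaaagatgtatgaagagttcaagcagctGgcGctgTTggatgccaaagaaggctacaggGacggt
Larp1: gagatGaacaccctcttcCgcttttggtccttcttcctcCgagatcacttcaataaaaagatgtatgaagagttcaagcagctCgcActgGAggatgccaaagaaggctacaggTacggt
The first pair differs at 6 of 111 bases and the second at 8 of 120 bases.

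The unnamed loci were short and nearly all were tested. Their median width was 375 bases, with quartiles of 169 and 718 bases, whereas named rows had a median span of 20152 bases. Cuffdiff tested 3879 of the 3921 unnamed loci (98.9%) and 13065 of the 23277 named rows (56.1%), so unnamed loci made up 22.9% of all tested rows. Loci farther from a named row were shorter, with median widths of 514 bases at up to 1 kb, 445 at 1 to 10 kb, 274 at 10 to 100 kb and 154 beyond 100 kb. The 126 loci in shared spans had exactly the coordinates of a named row, over 59 distinct spans, so their median width of 35672 bases belongs to the whole span. The median gap over all paired loci was 9373 bases, and the 1 kb class edge fell between gaps of 997 and 1006 bases. Of the 3795 loci outside shared spans, 30 had the same coordinates as another unnamed row.

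The position of the loci relative to genes changed with the gap. Of the 441 loci within 1 kb whose neighbour has a strand in GENCODE, 361 (81.9%) lay on the 5′ side. The share was 44.1% at 1 to 10 kb, 49.8% at 10 to 100 kb and 48.3% beyond. The strand of the loci themselves is not in the table, so a start in the opposite direction and a longer first exon of the gene cannot be told apart here.

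Annotation of the same spans in GENCODE M21 divided the loci into several kinds. Each locus was given 1 kind, in the order pseudogene, protein-coding, long noncoding and small RNA exon, then intron, on either strand and at any overlap. The 126 loci in shared spans were not annotated but count in the percentages of all loci. A pseudogene exon was present at 1601 loci (40.8%). Of loci without one, 487 (12.4%) held an exon of a protein-coding gene. A long noncoding RNA exon, with neither of these, was present at 372 (9.49%). A further 322 loci (8.21%) lay only in introns, and 1004 (25.6%) overlapped no annotated gene. Pseudogene exons made up 2.76% of loci within 1 kb, 22.4% at 1 to 10 kb, 60.3% at 10 to 100 kb and 80.2% beyond 100 kb. The loci on protein-coding exons belonged to the nearest named gene itself in 288 of 487 cases (59.1%), which places them in parts of that gene outside the span of its row.

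**Figure D1:**
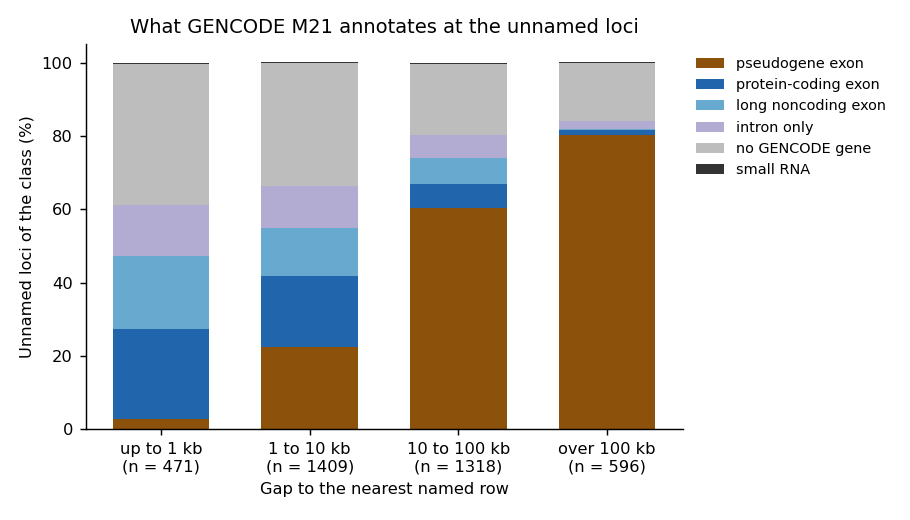
Share of unnamed loci (percent, y axis) in each GENCODE M21 annotation kind, by gap to the nearest named row (x axis, number of loci under each bar). Pseudogene exons take 2.76% of the class up to 1 kb and 80.2% of the class over 100 kb.

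Few unnamed loci were called. Of the 3879 tested loci, 13 (0.335%) in the authors' deposited table had a Cuffdiff q under 0.05, against 1.58% of all tested rows and 1.94% of named tested rows. Of these, 6 were higher in Shh KO and 3 lower, where 1.23% of all tested rows were higher and 0.313% lower. In the other 4 the cells for fold change and for the test statistic are both spreadsheet errors, and their direction cannot be read. An unadjusted Cuffdiff p under 0.05 was reached by 150 loci (3.87%), against 7.52% of named tested rows. Fold changes were nonetheless wider among the loci. In the authors' deposited table, at least 2-fold differences were given for 315 loci (8.14%), 5 of them called, against 554 named rows (4.25%), 207 of them called. The median size of the log2 fold change was 0.28 for loci and 0.15 for named rows. The largest called q was 0.0356 and the smallest above the threshold 0.0513.

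The 3 called falls lay on the 5′ side of genes that were also lower in Shh KO. The authors' deposited table gave the locus 100 bases from Fendrr, a long noncoding RNA of lateral mesoderm, a log2 fold change of −2.36, at a Cuffdiff q of 0.00985. The locus spans 593 bases (chr8:121083192-121083784, mm10), inside an intron of Gm20388, and is 601 bases from Foxf1, a forkhead factor of splanchnic mesoderm. Fendrr itself fell from 37.2 to 15.8 FPKM (log2 −1.24) and Foxf1 by 0.98 (log2), each with a Cuffdiff q of 0.00554 in the authors' deposited table. The locus 386 bases from Ptch1 (chr13:63565907-63566211, 305 bases) read −2.22 in the authors' deposited table (Cuffdiff q = 0.0137). Ptch1 fell from 33.8 to 11.6 FPKM there, a log2 fold change of −1.55, and GENCODE places the locus in an intron of Ptch1. The locus 61 bases from Nkx6-1 (chr5:101665035-101665216, 182 bases), in no GENCODE gene, read −1.99 in the authors' deposited table (Cuffdiff q = 0.0137). Nkx6-1, a homeobox factor known from ventral neural tube and pancreas, fell from 16.6 to 5.22 FPKM in that table (log2 −1.67). In all 3 pairs the locus had a larger log2 fold change than the gene; the difference was not tested.

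The 2 largest called rises lay on the 3′ side of their neighbours. The authors' deposited table gave 1.39 on the log2 scale for a locus of 2929 bases (chr9:74893558-74896486), 2833 bases from Onecut1 (Cuffdiff q = 0.00554). Onecut1, a transcription factor of liver and neurons, read 0.49 and was not called. A locus of 2442 bases (chr9:95565568-95568009), 3446 bases from the Paqr9 row, lies in a GENCODE exon of Paqr9. It read 1.32 (Cuffdiff q = 0.0207) in the authors' deposited table, beside 1.40 for Paqr9, which rose from 2.08 to 5.49 FPKM. The remaining 4 rises were between 0.63 and 0.71 in short loci of 55 to 192 bases with no GENCODE gene. Their nearest named rows were Tra2a at 7303 bases, Zfp945 at 9325, Chordc1 at 304334 and Ddx18 at 789146. None of these neighbours was called in the authors' deposited table, with log2 fold changes of −0.08, −0.02, −0.18 and −0.03 (Cuffdiff q = 1).

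Of the 4 called loci without a readable direction, 2 had a called neighbour. One lay 9647 bases on the 5′ side of Hand1, a heart and limb transcription factor which the authors' deposited table gives as rising from 11 to 25.3 FPKM. Another lay 4292 bases on the 3′ side of Ccdc3, which rose from 2.93 to 7.89 FPKM there. The other two were 28067 bases from 4930524C18Rik and 13390 bases from Mir384, neither of which was tested.

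Within 1 kb of a gene that was itself called there were 13 loci, 12 of them on the 5′ side, and 12 of the 13 had the gene's sign in the authors' deposited table. Only the loci at Fendrr, Ptch1 and Nkx6-1 were called themselves. The locus beside Pou3f3, a POU-domain factor of neural and kidney development, read 2.14 in the authors' deposited table (Cuffdiff q = 0.0623) and the gene 2.61. GENCODE places that locus in an exon of Pou3f3 itself. Beside Foxd1, a forkhead factor of stromal mesenchyme, the values were −1.97 (Cuffdiff q = 0.866) and −1.01. Hoxc6, an axial patterning gene, had a locus at 3.29 in the authors' deposited table (Cuffdiff q = 0.887) and a gene value of 1.72. The Dlk1 locus read 1.53 and the gene, an imprinted relative of the Notch ligands, 1.25 in that table. At Tbx1, a T-box factor of the pharyngeal and outflow mesoderm, locus and gene read −0.75 and −0.97 in the authors' deposited table. That locus lies in a GENCODE intron of Tbx1. At Wnt2b, a Wnt ligand, the 5′ locus read −1.29, the 3′ locus −0.32 and the gene −0.90 in the authors' deposited table. The exception was Pgam2, a muscle glycolytic enzyme, whose gene read 1.04 and locus −0.69 in the authors' deposited table (Cuffdiff q = 1 for the locus). At Barx1, a homeobox factor of stomach and facial mesenchyme, the locus read 1.50 and the gene 0.90 in the authors' deposited table.

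**Figure D2:**
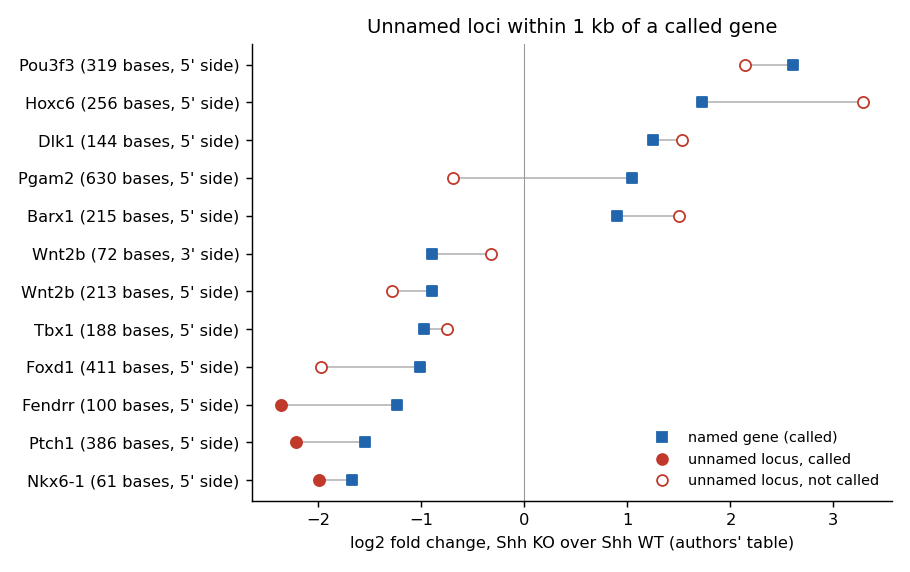
Log2 fold change (x axis, Shh KO over Shh WT, as deposited) of unnamed loci (circles, filled where called) and of the called named gene within 1 kb (squares), with gap and side on the y axis, for the 12 pairs with the largest change of the named gene. Locus and gene lie on the same side of 0 in 11 of these 12 pairs, and Pgam2 is the exception.

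Across all pairs, equal signs were only a little more common than opposite signs. Both rows had a tested numeric fold change in 2685 pairs, and 1469 (54.7%) shared a sign. The share was 55.3% in shared spans, 60.1% at up to 1 kb (273 of 454), 52.6% at 1 to 10 kb, 55.9% at 10 to 100 kb and 50.5% beyond. Without pseudogene loci it was 59.8% at up to 1 kb (266 of 445) and 52.3% at 1 to 10 kb. At 10 to 100 kb it was then 60.8% (222 of 365), and beyond 47.1% (24 of 51). So without these loci the share did not fall steadily with the gap. Pearson's r over the pairs within 1 kb was 0.47 and Spearman's rho 0.26, and r was 0.01 beyond 100 kb. These are descriptions over loci of the same 9 libraries, and many loci share a neighbour. Of the 471 loci within 1 kb, 111 (23.6%) lay in a GENCODE exon or intron of the nearest named gene itself. Without the pairs whose neighbour was called, 59.2% of the 441 pairs within 1 kb shared a sign, with r of 0.30. Named rows paired with their own nearest named row shared a sign in 54.5% of cases within 1 kb (r 0.23), 53% at 1 to 10 kb, 51.7% at 10 to 100 kb and 59.9% beyond (127 of 212). Where both members had an unadjusted Cuffdiff p under 0.05, 21 of 23 pairs (91.3%) shared a sign.

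**Figure D3:**
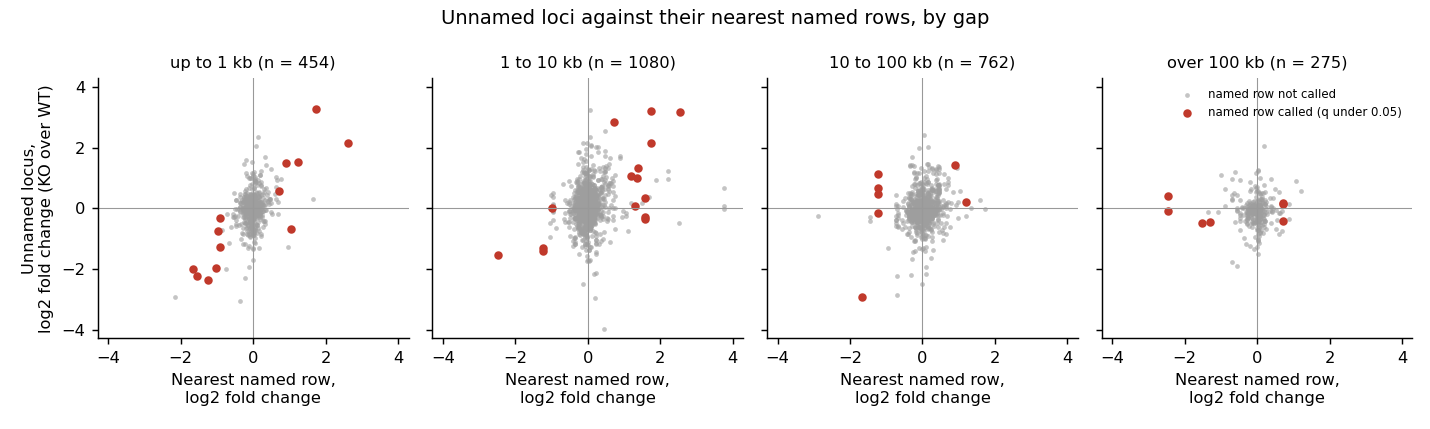
Log2 fold change of each unnamed locus (y axis) against its nearest named row (x axis), both Shh KO over Shh WT as deposited, in 4 gap classes. Red points have a called named row; 12 of 13 of them have equal signs at up to 1 kb, 12 of 15 at 1 to 10 kb, 4 of 7 at 10 to 100 kb and 5 of 7 beyond.

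Loci near genes of known function were few. Among 17 Hedgehog pathway genes, 6 tested loci within 10 kb had a list gene as nearest row, and 1 of the 6, the Ptch1 locus, shared the sign of the row it was paired with. That count depends on which of 2 equally near Gli2 rows is used, and it is 3 of 6 with the other. In the authors' deposited table, the 3 loci on the 5′ side of Gli3, the Gli factor that acts mainly as a repressor, read 0.12 to 0.23, and Gli3 −0.20 (Cuffdiff q = 1). The 2 loci beside Gli2, the main activator, read −0.34 and −1.01, while Gli2 has 2 rows of the same span at 0.42 and −0.33 in the authors' deposited table. Genes known to respond to Hedgehog in mesoderm were the nearest row, within 10 kb, of 12 loci, with a median of −1.02, 11 of them of the neighbour's sign and 1 called; over all tested loci the median was −0.02. Each of these nearest rows was itself called. Of the 21 tested list rows, 13 were called lower and 2 higher, against 0.313% and 1.23% of all tested rows. This list too was chosen with earlier results of these data known, so these shares are not a test. The called locus was that on the 5′ side of Fendrr. The exception in sign lay 3565 bases from Foxf1, at 0.01 beside −0.98. That locus overlaps a GENCODE exon of another gene, Mthfsd, whose row lay 4605 bases away and read −0.11. The 12 loci include 1 that lay 1284 bases from Foxl1, a forkhead factor of gut mesenchyme, at −1.54, beside −2.47 for the gene, in the authors' deposited table. On the 3′ side of Fendrr 2 loci read −1.30 and −1.42, and near Nkx2-3, a homeobox gene of visceral mesoderm, 2 loci read 3.20 and 2.17 beside a gene value of 1.75 in the authors' deposited table. The list members overlap the loci beside called genes described above.

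Among cardiomyocyte genes, 15 of 25 tested rows were called higher in the authors' deposited table, against 1.23% of all tested rows, and 4 loci with a list gene as nearest row lay within 10 kb. They read 1.44 beside Nebl (a Z-disc protein), 1.18 beside Bmp10 (a trabecular growth factor), 1.00 beside Myl4 (the atrial light chain) and −0.10 beside Tpm1 (tropomyosin), none called in the authors' deposited table. The Bmp10 and Myl4 loci lie in GENCODE exons of those genes themselves. All 12 tested hepatoblast rows and 4 of 8 macrophage rows were called higher in the authors' deposited table, again against 1.23%. These lists were chosen with earlier results of these data known, so the shares called describe the lists and are not a test. No tested unnamed locus lay within 10 kb of a hepatoblast gene, and 1 lay within 10 kb of a macrophage gene but nearer to another named row. Where a second heart field gene was the nearest row within 10 kb, 12 of 14 loci had its sign and none was called. The 14 loci had only 5 distinct neighbours, and 7 of them lay at Hand2, where loci share coordinates. At Hox genes 10 of 11 pairs shared a sign, again with no locus called. That count depends on which of several equally near rows is used. The loci at 2.04 and 1.74 were paired with the row of Hoxb3 and Hoxb4 at 0.08, and Hoxb2 at the same gap read −0.06. The pair of opposite sign was a shared span at 0.39 with Hoxa2 at −0.10, where Hoxa3 read 0.19. Of 10 pSHF markers all were tested, and the authors' deposited table calls Osr1 (−1.09) and Foxf1 (−0.98) lower in Shh KO. Of all tested rows 0.313% were called lower. The other markers were not called and read from −0.44 (Tbx5) to 0.06 (Nr2f2).

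Each gap class held a widest tested locus. The widest of all, 354388 bases, is a shared span with the coordinates of Clpb on chromosome 7 and read 0.58 in the authors' deposited table. The widest within 1 kb spans 25728 bases beside 1700008J07Rik, overlaps an exon of Gm42715 and read −0.28 there. The widest at 1 to 10 kb spans 116554 bases beside the Svil row and read −0.19 in the authors' deposited table. It overlaps a GENCODE exon of Svil itself. At 10 to 100 kb the widest has a span of 71180 bases that overlaps an exon of Nxpe4 and read −0.37, and beyond 100 kb the widest has a span of 42622 bases that overlaps an exon of Immp2l and read 0.50 in the authors' deposited table. None of the 5 was called.

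Loci on pseudogene exons were short, and their values were centred below 0. Their median log2 fold change was −0.11 in the authors' deposited table, 36.1% were above 0, none was called and 27 of 1599 tested (1.69%) had an unadjusted Cuffdiff p under 0.05. Loci with no GENCODE gene had a median of 0.08, with 57.2% above 0, and held 10 of the 13 calls, which is 1.02% of the 982 tested and below the 1.58% of all tested rows. Long noncoding exons had a median of 0.09 and coding exons 0.08. The pseudogene loci had a median width of 176 bases. Up to 50 bases, the read length in the labels, were 7.12% of pseudogene loci and 1.87% of the others outside shared spans. Up to 100 bases were 29.5% and 5.1%.

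**Figure D4:**
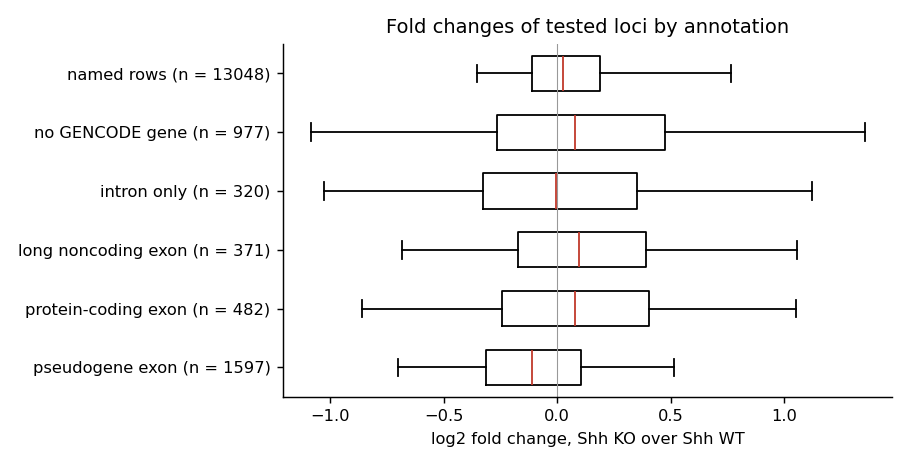
Log2 fold change (x axis, Shh KO over Shh WT, as deposited) of tested unnamed loci by GENCODE annotation and of named rows (y axis, number of rows in brackets). Boxes span the quartiles, the red line is the median and whiskers reach the percentiles at 5 and 95; the pseudogene median is −0.11 and that of named rows 0.02.

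These loci lay on 1052 pseudogenes, of which 325 held at least 2 loci and together 874 of the loci. The most on a single pseudogene was 8, on Gm14857, a copy of the importin gene Ipo5. For 1311 loci a protein-coding transcript matched at least 80% of the locus, at a median identity of 96.4%, over 779 genes, and 119 loci matched at 99% or more. With 50-base reads such copies could share reads with the parent, so values of both are uncertain where reads could be split; whether the parent's reads were placed on these loci was not tested. The sign of the locus was that of the matching gene in 802 of 1198 loci with a value (66.9%), with r of 0.31 and rho of 0.37. Both sides lean below 0, with medians of −0.11 for the loci and −0.05 for the matching genes. Equal signs would thus be the more common even in unrelated pairs, and the share expected from this lean was not computed. By identity the share was 73.1% of 104 loci at 99% or more (r 0.54), 65.6% of 759 at 95 to 99% (r 0.26) and 68.1% of 335 under 95% (r 0.35), so it did not change steadily with identity. Among the 567 loci where the nearest named row had a value too, 66.1% had the sign of the matching gene and 54.9% that of the neighbour, with r of 0.32 and 0.07.

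Of the 12 matching genes with at least 6 loci, 5 had all their loci on one side of 0, in each case below it; of all pseudogene loci 63.9% were below 0. In 3 of the 5 genes, Ipo5, Larp1 and Stip1, the loci are pieces of a single pseudogene. All 7 Ipo5 loci were below 0 in the authors' deposited table, from −0.59 to −0.05, and Ipo5 read −0.21. All 6 loci of Larp1, an RNA-binding protein of translation, were between −0.85 and −0.14, and Larp1 read −0.27 in the authors' deposited table. All 8 loci of the chaperone gene Hsp90ab1 were between −0.56 and −0.04, beside −0.07 for the gene, and all 6 of the co-chaperone gene Stip1 were between −0.49 and −0.06, beside −0.18, in the authors' deposited table. The fifth gene was Metap2, with 6 of 6 below 0. The others were mixed, among them Gm38394 (7 of 10 below 0), Rbbp4 (6 of 9), Cct7 (5 of 7), Clpb (3 of 6) and Ppp2r1a, a phosphatase scaffold subunit (2 of 7). No pseudogene locus was called.

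**Figure D5:**
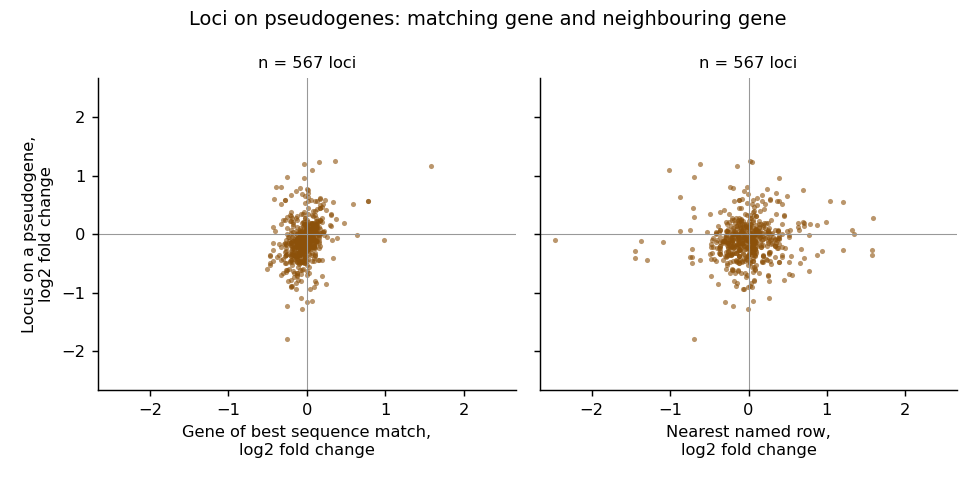
Log2 fold change of 567 loci on pseudogenes (y axis) against that of the gene of best sequence match (left x axis) and of the nearest named row (right x axis), as deposited. The locus has the sign of the matching gene in 66.1% of cases and of the neighbour in 54.9%.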

How the data were processed

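Per the submitters' processing notes, reads were handled with TopHat2 2.0.10 and Cuffdiff 2.1.1 on mm9; options and strand settings are not given in the sources used here. Per the file headers, the authors' full table gives per row a log2 fold change with its p-value and q-value, and Cuffdiff's statistic (a score, not used). Their shorter deposited table gives 1 pooled FPKM per genotype and a fold ratio for 253 genes. The deposited positions fitted GRCm38 (mm10): 98.7% of 21294 named rows overlapped their GENCODE M21 gene. Starts have 1 added.

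A p-value under 1 marked a tested row. Benjamini-Hochberg adjustment over those 16944 rows gave the deposited q within 0.0001. A row was called at Cuffdiff q under 0.05, and no test of the loci was added. Gap is the number of bases between spans. Where several named rows were equally near (525 loci), the first tested one in table order was used. Pseudogene loci of at least 30 bases were searched with blastn 2.17.0 (e-value 1e-5, 80% of the locus covered) against GENCODE coding transcripts. Python 3.11.15 and pandas 2.3.3 were used, and the pairing was tested on simulated intervals. Named loci were those called, those within 10 kb of Hedgehog, mesodermal response, cardiomyocyte or hepatoblast genes, the widest of each class, and those within 1 kb of a called gene (the 10 largest; Barx1 was added after its values were seen, and 1 locus is not reported here). Alternatives varied the q threshold, the loci and the pairs. The members and lists were chosen with earlier results of these data known.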

Additional observations from a re-analysis of the deposited data

How the results depend on the processing

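With Cuffdiff q under 0.01, 1 locus was called higher and 1 lower in place of 6 and 3. With q under 0.10, 18 were higher and 3 lower. Asking for at least 2-fold as well left 2 higher and 3 lower. Leaving out shared spans or pseudogene loci, or counting loci within 1 kb once, left both counts at 6 and 3. These settings could not change the counts. No called locus lay in a shared span or on a pseudogene exon, and no called loci with a direction lay within 1 kb of each other.

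The share of pairs of equal sign moved from 54.7% to 91.3% where both members had an unadjusted p under 0.05 (23 pairs) and to 59.2% for gaps of at most 1 kb or an overlap. It was between 53.4% and 55.8% with 1 locus per named row, with the nearest tested named row, without overlaps and without pseudogene loci. The median width moved from 375 to 363 bases without shared spans and to 490 without pseudogene loci; the tested share was between 98.7% and 99.2%. The alternatives without pseudogene loci, and that with the other Gli2 row, were chosen after seeing the data.

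No paired analysis was possible because the tables hold no value per library, so leaving out each library and the replicate block were not run. Depth per library is unknown, which limits how well short loci can be compared.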

Other observations

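Between Cuffdiff q of 0.05 and 0.10 the authors' deposited table held 14 further loci, 12 of them higher in Shh KO, none lower and 2 without a readable fold change. Unnamed loci were spread over the chromosomes, with 280 on chromosome 2 (7.14% of unnamed rows, 8.44% of named rows) and 273 on the X chromosome (6.96% and 4.39%).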
